A study of Arabidopsis thaliana with 4 samples.

Results

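The spotted features of 88 consecutive plates, TB26 to TB99 and TC00 to TC13, carried low H3K9me2 array ratios broken by a few short stretches of high ratios. The plates were delimited by the series and plate number in the feature identifiers. They were picked because earlier results on the same ratios had shown few high values there, so their low level is how they were chosen and is not a finding. They hold 8386 listed features, of which 8378 had a value on all arrays, out of 21727 measured features on the whole array. The 8 empty wells were 6 on plate TB26 and 1 each on TB52 and TB78.

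Whole Arabidopsis thaliana plants of the col-0 ecotype were used as seedlings 11 days old, grown in liquid medium at 22 °C with light for 16 h a day and given no treatment. There was a single group: DNA immunoprecipitated with an antibody against H3K9me2 (the IP) hybridised against input DNA on 2-colour arrays (ChIP-chip). The 4 arrays came from 2 preparations, called replicate 1 and replicate 2, each hybridised as a pair with the Cy3 and Cy5 dyes exchanged. The files hold 1 log-scale ratio per feature and array, and neither the log base nor the direction of the ratio is stated in the labels or the file. The paired columns of a replicate were identical for all 21727 features, so each replicate counted as 1 value and n = 2 throughout. Whether the preparations came from separate cultures is not stated, so the spread between them may be technical. Nothing here is a ratio to an untreated or mutant plant, and whole seedlings mix all their cell types.

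H3K9me2 is histone H3 with a pair of methyl groups on its lysine 9. In Arabidopsis it is placed by histone methyltransferases of the KRYPTONITE family, which bind methylated DNA, while the DNA methyltransferase CHROMOMETHYLASE binds the histone mark, so that histone and DNA methylation maintain each other. The mark is known for covering silent, transposon-rich chromatin around centromeres, and for short patches over single transposons and repeats within the gene-rich chromosome arms. The features carry no chromosome position, gene name or sequence in the files used here, and none of their identifiers is in the RefSeq gene table, so no feature below is assigned to a gene or a transposon.

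All values below are deposited log units relative to the median of the 21727 features in the same replicate. That median was -1.39 in replicate 1 and -1.15 in replicate 2 on the deposited scale. The label under which these plates were proposed calls them poor in H3K9me2. Each pair of arrays has the IP named first in one title and second in the other, and yet the values of the pair are the same, so the labels do not settle the direction. If the ratio is IP over input, a low value means little H3K9me2, and with the opposite direction it means the reverse. The plates are therefore called low-ratio plates here. Features follow each other by series, plate, row and column, and a neighbour is the next well in that order.

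The 8378 features of the low-ratio plates formed 1 narrow low peak with a thin upper tail. Their median ratio was -0.14 in replicate 1 and -0.20 in replicate 2, a mean of -0.17. The middle part, from the lower to the upper quartile of the mean of both replicates, ran from -0.34 to 0.03. In both replicates 57.7% of the features (4834) lay below the array median and 18.0% (1506) above it, against 29.8% below and 54.8% above among the 13349 features of all other plates. In the mean of both replicates, 94.2% (7890) lay less than 0.5 units above the array median. A further 406 features had a mean of 0.5 to 1.5 units, 21 had a mean of 1.5 to 2 units, and 61 reached 2 units or more. The tail thus had more features past 2 units than between 1.5 and 2. Since the same ratios chose the plates, no test is attached to these comparisons.

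**Figure D1:**
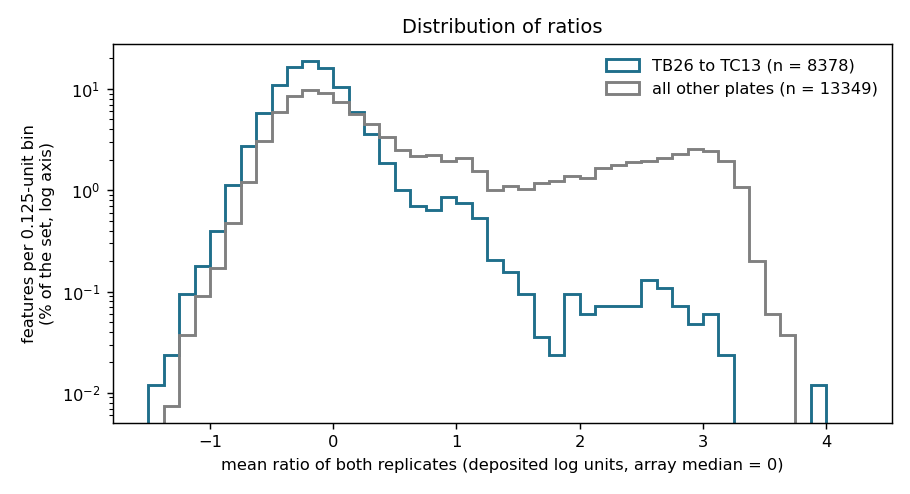
Percent of features per 0.125-unit bin of the mean ratio of both replicates (x axis, deposited log units with the array median at 0; y axis, percent of the set on a log scale). The low-ratio plates TB26 to TC13 are blue and all other plates grey. The blue line has a low peak below 0, a shoulder near 1, a dip between 1.5 and 2 units and a small separate group of values between 2 and 3.25, and its single value near 4 lies to the right of all grey values.

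Single plates stayed close to this level. Plate medians of the mean ratio ran from -0.32 to 0.19 with an SD of 0.09 over the 88 plates. In 77 plates the median lay below the array median in both replicates, and in 6 plates the median of the mean ratio lay above it. Plate TB35 had the highest median, 0.25 in replicate 1 and 0.15 in replicate 2. It held 3 high-ratio features (defined below), 3.125% of its wells, against 1.75% over all low-ratio plates. Replicates ordered the plates alike to a moderate degree, with a Pearson's r of 0.711 across the 88 plate medians, a description with no test. The difference between the plate medians, replicate 2 minus replicate 1, ran from -0.24 in TB95 to 0.16 in TB34. That span is comparable to the span of the plate medians themselves, so fine differences of level between plates were not resolved by 2 replicates.

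Features at least 1 unit above the array median in both replicates are called high-ratio features. The low-ratio plates held 147 of them, 1.75% of 8378, where the whole array had 19.2%. That share helped to choose the plates and nothing is read from it. The feature just inside the limit was TB65C02, at 1.003 in replicate 1 and 1.11 in replicate 2, and the one just outside was TB35B11, at 1.39 and 0.9997. A further 56 features were at 0.9 or more in both replicates without passing. The count rested on both replicates being asked for. Replicate 1 alone had 186 features at or above 1 unit, 79.03% of them shared, and replicate 2 alone had 271, 54.2% of them shared.

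High-ratio features were gathered in few plates. No high-ratio feature was found in 41 of the 88 plates, and 24 plates held exactly 1. The 12 plates with 5 or more held 94 of the 147, or 63.9%. TB28, TB34 and TB63 had the most, 12 each. Long stretches were almost bare. TB36 to TB51 held 7 in 1536 features, 3 of them on the single plate TB40. TB73 to TB77 held 0 in 480 features. TB79 to TB99 held 12 in 2016 features and never more than 1 on a plate. Plates without any were TB27, TB29, TB30, TB36, TB38, TB39, TB41 to TB45, TB47 to TB51, TB53, TB54, TB59 to TB61, TB69, TB70, TB73 to TB77, TB85, TB87, TB91, TB92, TB94 to TB98, TC02, TC04, TC08 and TC10. The TB and TC portions were alike, with 1.82% high-ratio features and a median of -0.17 in TB26 to TB99, and 1.40% and a median of -0.17 in TC00 to TC13.

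**Figure D2:**
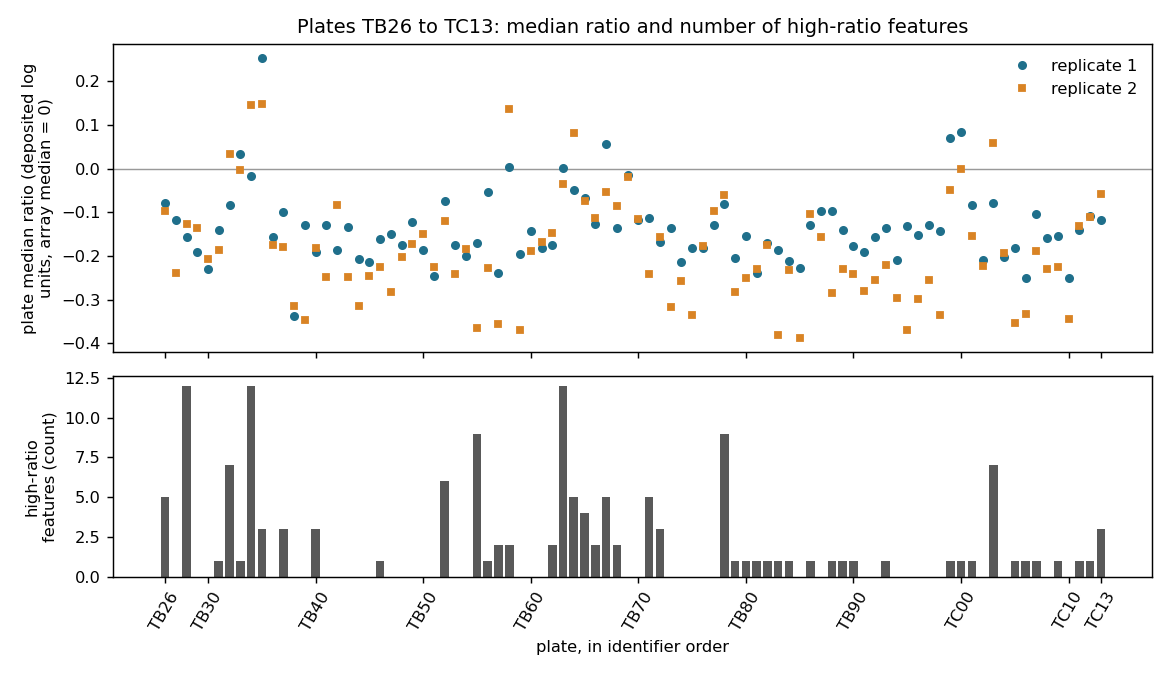
Upper panel, the median ratio of each plate in replicate 1 (blue circles) and replicate 2 (orange squares), in deposited log units with the array median at 0. Lower panel, the number of high-ratio features per plate. Medians stay between about -0.4 and 0.25 along the 88 plates, and the tall bars, at TB28, TB34 and TB63 with 12 features each, stand apart with bare stretches between them.

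Most high-ratio features past 2 units stood in runs of neighbouring wells. Runs, meaning at least 3 high-ratio wells in a row, numbered 15 and contained 78 of the 147 features (53.1%). Another 6 stood in 3 pairs and 63 (42.9%) stood alone. Over the whole array, 88.0% of the high-ratio features stood in such runs and 8.18% stood alone. High-ratio features of the low-ratio plates were thus less often in runs than those of the array as a whole. Of the 15 runs, 8 had at least 5 wells, and these 8 held 55 features. Their mean ratios ran from 2.00 to 2.77 units.

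The longest run had 9 wells, TB63E09 to TB63F05, with a mean of 2.999 in replicate 1 and 2.37 in replicate 2 (2.68 ± 0.45, SD, n = 2). Its first well, TB63E09, was an intermediate step at 1.38 in replicate 1 and 1.16 in replicate 2. The next well, TB63E10, was already at 3.27 and 2.44, and the plateau continued to TB63F05 at 3.12 and 2.50. The highest well of the run was TB63E11, at 3.31 and 2.77. Beyond the run, TB63F06 was at 0.19 and 0.38. On this side the change from plateau to low level thus took place between adjacent wells, and both replicates placed it at the same well. One well further, TB63F07 was again high, at 1.55 in replicate 1 and 2.36 in replicate 2, and was followed by TB63F08 at -0.23 and -0.89.

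The second run by length was TB55G05 to TB55G12, 8 wells at a mean of 2.75 in replicate 1 and 2.11 in replicate 2 (2.43 ± 0.46, SD, n = 2). It was among the more even of the long runs, with an SD of 0.28 over its wells. Of the 3 runs with 7 wells, TB28E05 to TB28E11 had the highest mean of all 15 runs, 2.96 in replicate 1 and 2.57 in replicate 2. The run TB32C04 to TB32C10 averaged 2.82 and 2.41. The run TC03C06 to TC03C12, the only long one in the TC portion, was lower, at 2.22 and 1.78. It stepped up from TC03C05, at 0.01 in replicate 1 and 0.02 in replicate 2, through TC03C06, at 1.41 and 1.095, to TC03C08 at 2.92 and 2.06. It ended at TC03C12, at 1.83 and 1.42, beside TC03D01 at 0.17 and 0.33. Both edges were seen in both replicates.

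Plate TB34 had a pair of runs close to each other. TB34B05 to TB34B10 averaged 2.80 in replicate 1 and 2.10 in replicate 2 over 6 wells, with shoulders of 1.21 and 1.09 units in the wells on either side. TB34C07 to TB34C12 averaged 2.40 and 2.11 over 6 wells and had no shoulders, with -0.13 and -0.02 units beside it. TB52B03 to TB52B07, with 5 wells, averaged 2.51 and 2.02. It sloped up to its last and highest well, TB52B07, at a mean of 2.66, and was followed by a well at 0.59. Over the 8 long runs, the 16 wells directly outside had a median of 0.43 (-0.13 to 1.21), and 8 of them were under 0.5. The wells one further out had a median of 0.16. Profiles therefore differed from run to run, some with an abrupt edge and some with a step of 1 well. Others rose over several wells, as before TB52B03, where TB52B01 was at a mean of 0.88 and TB52B02 at 1.17.

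**Figure D3:**
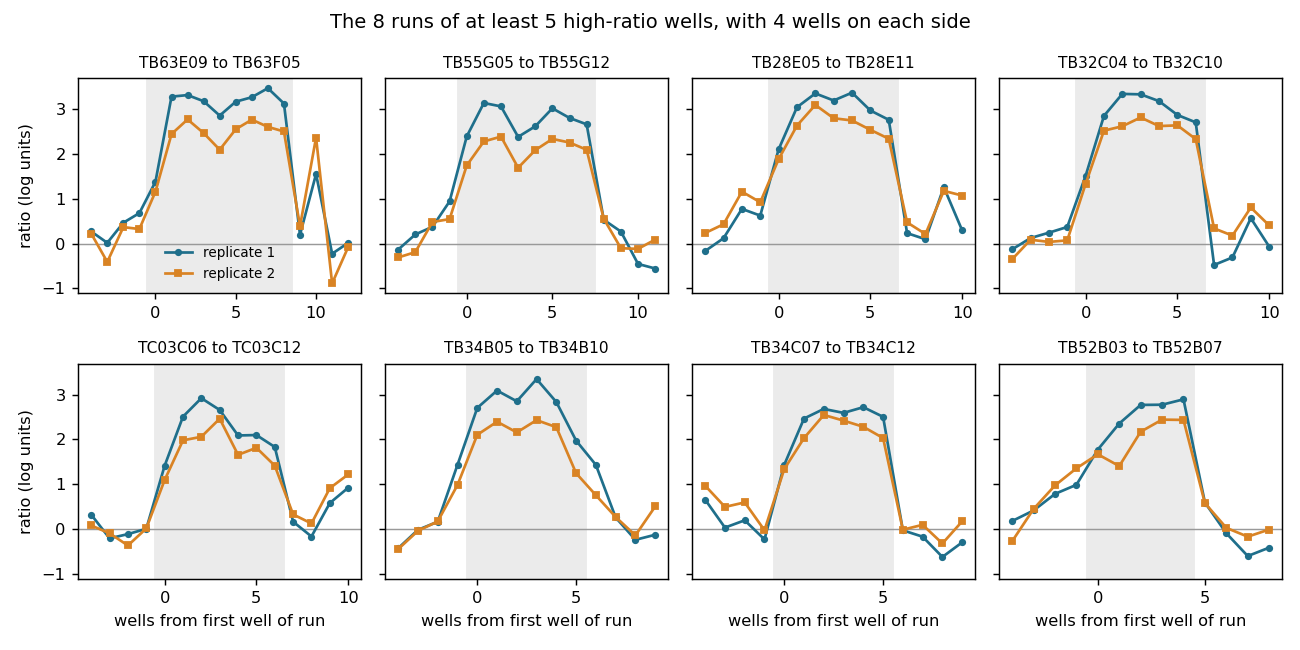
Ratio in each well (y axis, deposited log units with the array median at 0) against the distance in wells from the first well of the run, for the 8 runs of at least 5 high-ratio wells and 4 wells on each side. Grey marks the run, blue circles replicate 1 and orange squares replicate 2. Within the grey bands replicate 1 lies above replicate 2 at every well. Most flanking wells lie well below the run, but some are raised again, as at TB63F07 (mean 1.96), TB28F02 (1.2) and TC03D04 (1.07).

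The 7 shorter runs lay between 1.39 and 2.42 units. TB78 had a pair of them, TB78E01 to TB78E04 at a mean of 2.29 and TB78E10 to TB78F01 at 1.97, 4 wells each. TB71B08 to TB71B10, at 2.22, stood between wells at -0.33 and -0.09. TB72H07 to TB72H09 averaged 2.42, and TB64B07 to TB64B09 averaged 1.70. TB28G08 to TB28G10, at 1.39, was the lowest of the 15 runs. It was also the only one in which replicate 2 was higher, at 1.45 against 1.32 in replicate 1.

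Features standing alone were mostly of another height than features in runs. The 63 lone high-ratio features had a median of 1.21 in replicate 1 and 1.27 in replicate 2, and 53 of them had a mean under 1.5 units. Only 2 (3.17%) reached 2 units. In the runs of at least 3 wells, 59 of 78 (75.6%) reached 2 units, with medians of 2.70 in replicate 1 and 2.11 in replicate 2. Lone features had wells beside them that were only slightly raised, with medians of 0.01 before and 0.03 after, against -0.17 for all features of the low-ratio plates. The limit of 1 unit chose both kinds, and a lone feature close to it may have neighbours just under it. No test is given between them.

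The replicates also differed in a way that went with height. Among the 61 features with a mean of at least 2 units, replicate 1 was higher in 59, and the median difference, replicate 2 minus replicate 1, was -0.56. Among the 406 features with a mean of 0.5 to 1.5 units the median difference was 0.15, and among those under 0.5 units it was -0.07. The gap at high ratios was not particular to the low-ratio plates. In plates TC17 to TC30, where the median ratio was 2.77, the median difference was -0.52. None of the 55 features in long runs was higher in replicate 2, while 40 of the 63 lone features were.

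The 2 exceptions past 2 units were on the same plate, TB40. TB40E11 was at 3.73 in replicate 1 and 4.24 in replicate 2 (3.98 ± 0.36, SD, n = 2), higher in the mean than any other of the 21727 features. TB40C07 was at 2.82 and 3.52 (3.17 ± 0.49, SD, n = 2). The other lone feature of this plate, TB40D11, was at 1.85 and 2.13 (1.99 ± 0.20, SD, n = 2). In all 3 replicate 2 was higher. Each was surrounded by low wells: -0.25 and 0.21 beside TB40E11, -0.41 and -0.17 beside TB40C07, and -0.34 and -0.21 beside TB40D11. The other 93 wells of TB40 ran from -0.80 to 1.07. Besides these, lone features with a mean of 1.8 units or more (a limit chosen after their values were seen) were TB26F12, at 2.33 in replicate 1 and 1.63 in replicate 2, and TB63F07, described above. What distinguishes the spots of TB40 was not tested, since no intensities or spot flags were used here.

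**Figure D4:**
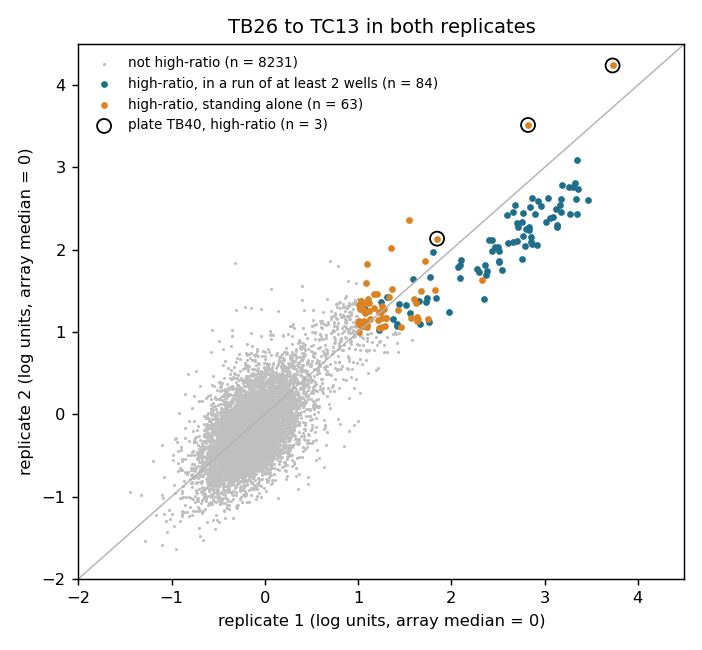
Each feature of the low-ratio plates by its ratio in replicate 1 (x axis) and replicate 2 (y axis), in deposited log units with the array median at 0. Grey points are not high-ratio features, blue points are high-ratio features in a run of at least 2 wells, orange points stand alone, and circles mark plate TB40. Blue points above 2 units lie under the diagonal of equal values, and the circled points lie above it.

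The 10 highest features were TB40E11, TB40C07 and 8 wells inside the long runs. From TB28 these were TB28E07, at 3.35 in replicate 1 and 3.09 in replicate 2, TB28E08, at 3.19 and 2.79, and TB28E09, at 3.36 and 2.74. From TB32 they were TB32C06, at 3.33 and 2.61, and TB32C07, at 3.32 and 2.81. From TB63 they were TB63E11, given above, TB63F03, at 3.26 and 2.76, and TB63F04, at 3.46 and 2.60. Apart from the TB40 wells, the means of these features lay between 2.97 and 3.22 units. The plates TC17 to TC30, in which 95.6% of the features were high-ratio features, had a median of 2.77. In 4 of the 15 runs the highest well reached that median, and in the other 11 it did not.

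Intermediate features stood alone or in short stretches, typically beside wells that were raised a little. The low-ratio plates had 406 features (4.85%) with a mean of 0.5 to 1.5 units, where the whole array had 10.9%, and 65 of these were also high-ratio features. Of the 406, 266 (65.5%) had no intermediate feature beside them, 47 lay beside a high-ratio feature, and none stood in a stretch longer than 4 wells. Stretches of at least 3 wells numbered 17 and held 56 of them (13.8%). The 341 that were not high-ratio features had neighbours with medians of 0.06 before and 0.06 after. For all features of the low-ratio plates the median was -0.17. At 4.85% of the features, most would stand alone under random placement too, and that share was not computed. The share alone is therefore not read as scattering. Plate TB58 had the most intermediate features, 26 of 96 wells in 24 separate groups. It had only 2 high-ratio features, TB58A08, at 1.04 in replicate 1 and 1.35 in replicate 2, and TB58E02, at 1.03 and 1.38. Its raised wells were thus dispersed over the plate rather than joined.

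The limma test of the mean of the replicates against the array median, fitted to all 21727 features with Benjamini-Hochberg adjustment and a limit of 0.05, called 577 features of the low-ratio plates above the median (6.89%) and 1407 below it (16.8%). Over the whole array it called 28.9% above and 11.7% below. The ratio that was tested also chose the plates, so the counts describe them and show nothing further. The counts depended on the zero. Without centring they were 74 above and 8102 below, and with centring on the mode, which lay 0.14 units below the median in replicate 1 and 0.22 below in replicate 2, they were 1020 above and 497 below. The fit shared 1 standard deviation of 0.26 units among all features, and called every feature at least 0.42 units from the median.

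Low values were not separated from the main peak. Only 9 features of the low-ratio plates (0.107%) were at least 1 unit below the array median in both replicates, where the whole array had 15 (0.069%). The lowest was TB81A05, at -1.28 in replicate 1 and -1.54 in replicate 2 (-1.41 ± 0.18, SD, n = 2). Adjacent wells TB34E02, at -1.10 and -1.58, and TB34E03, at -1.04 and -1.43, were both low, and the next well was at -0.87. TB42G02 was at -0.95 and -1.63, so it passed the limit of 1 unit in replicate 2 alone, and TB94H06, at -1.45 and -0.95, passed it in replicate 1 alone. TB94C04 was at -1.17 and -1.23, beside wells at -0.29 and 0.00. The replicates shared the low end only in part: of 703 features at or under -0.5 units in replicate 1, 58.6% were so in replicate 2, and of 1591 in replicate 2, 25.9% were so in replicate 1. Of the 1407 features called below, 649 (46.1%) stood alone. The longest stretch of them had 10 wells, TB57D02 to TB57D11, at a mean of -0.63.

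Over all features of the low-ratio plates the replicates correlated at a Pearson's r of 0.756 and a Spearman's rho of 0.565, both across features, which are not independent samples. Without the 147 high-ratio features r was 0.636. Replicate 2 minus replicate 1 had an SD of 0.33 units over features, and 43 features differed by at least 1 unit. The largest differences with replicate 2 higher were at TB51E09 (-0.32 in replicate 1 and 1.84 in replicate 2), TB74D01 (-0.57 and 1.02) and TB38F01 (-0.31 and 1.26). Those with replicate 1 higher were at TB98C05 (0.46 and -0.85), TB39F01 (0.64 and -0.64) and TB94F11 (0.36 and -0.91). None of these 6 was a high-ratio feature. The limma test still called TB51E09 (adjusted p 0.000117) and TB38F01 (adjusted p 0.0234) above the array median, and none of the others. Its standard deviation, shared by all features, takes no account of how far apart the replicates of a single feature lie.

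Neighbouring wells had similar ratios, over a short reach. Pearson's r between a well and the next was 0.507 over 8368 pairs, with 0.541 in replicate 1 alone and 0.441 in replicate 2 alone. At a distance of 2 wells it was 0.378, at 4 wells 0.234, at 8 wells 0.092 and at 12 wells 0.066. Without the features in runs of at least 3 wells, r for the next well was 0.329 over 8276 pairs. Among pairs without any high-ratio feature it was 0.334 for the next well and 0.124 at a distance of 3 wells. The difference between the replicates was also alike in neighbouring wells, with r of 0.332 for the next well, 0.153 at 2 wells and 0.056 at 3 wells. Since that difference went with height in the runs, it was also taken among pairs without high-ratio features, where r for the next well was 0.324. The part of this in the likeness of the ratios was not tested. The points share plates and arrays, so these values are descriptions with no p.

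**Figure D5:**
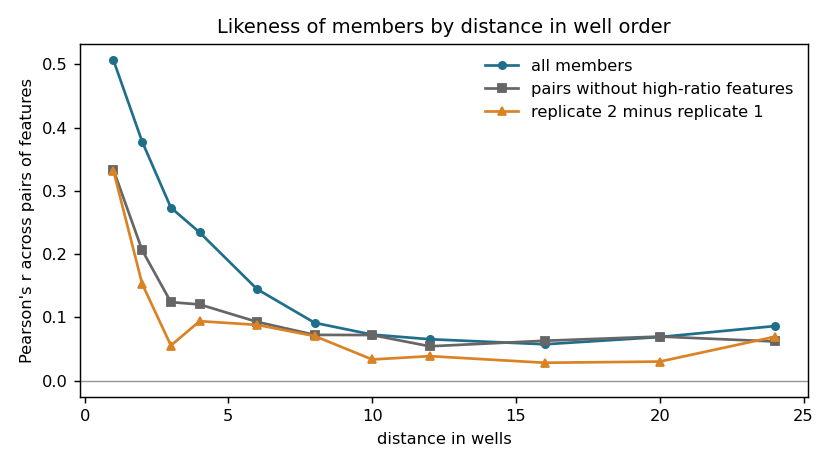
Pearson's r across pairs of features (y axis) against their distance in wells (x axis) within the low-ratio plates. Blue circles are all features, grey squares pairs without high-ratio features, and orange triangles the difference between replicates. All 3 lines drop within the first 3 to 8 wells, and the grey and orange lines start at nearly the same value, 0.334 and 0.332.

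Levels differed slightly with the position of a well within its plate. Rows A, C, E and G had a median of -0.15 and rows B, D, F and H one of -0.19, and rows A, C, E and G were higher in 54 of the 88 plates. Replicate 1 had medians of -0.12 and -0.16 for these row sets, and replicate 2 had -0.18 and -0.22. The features of all other plates that were not high-ratio features showed it too, with -0.03 against -0.07. Medians of the 12 columns lay between -0.19 and -0.15. These gaps are small beside the height of the runs.

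The plates at both ends of the range had medians and shares of high-ratio features within the span of the plates between them. At the lower end, the plate just outside, TB25, had a median of 0.97 and 37 high-ratio features (38.5%), whereas TB26, just inside, had a median of -0.07 and 5 (5.56%). The wells at the border itself lay in the opposite order. The last well of TB25, TB25H12, was at 0.00 in replicate 1 and -0.23 in replicate 2, and the first of TB26, TB26A01, was at 1.302 and 1.17. The first row of TB26 held raised wells and low wells side by side. TB26A02 was at 0.90 and 1.31, TB26A03 at -0.14 and 0.06, and TB26A04 at 0.96 and 1.38. All 6 empty wells of TB26 were in even-numbered columns of rows A, C, E and G.

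At the upper end, TC13 held 34 features, and its ratios climbed over its last wells. In the mean of both replicates, its first row, TC13A01 to TC13A12, was among the most even of the 692 complete plate rows. It had a mean of -0.21 and an SD of 0.07 over the wells, where the median row had an SD of 0.26. In single replicates the SD of this first row was larger, at 0.11 in replicate 1 and 0.12 in replicate 2. The last row began at means of 0.55, 0.53 and 0.53 in TC13C01 to TC13C03, with TC13C04 lower at 0.23 and TC13C05 at 0.38. TC13C06 was at 0.66 in replicate 1 and 0.49 in replicate 2. TC13C07 was at 1.23 and 0.87, TC13C08 at 1.42 and 1.07, and TC13C09 at 1.55 and 1.23. The last, TC13C10, was at 2.93 and 2.59 (2.76 ± 0.24, SD, n = 2). In both replicates each of these 5 wells was higher than the one before. No measured feature follows before plate TC17, where the median was 2.87 and all 60 features were high-ratio features, with the first, TC17D01, at 2.93 and 2.68. Whether ratios climb further between these plates was therefore not observed.

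The low-ratio plates were set beside 2 other ranges in which high-ratio features were a minority, TB00 to TB25 (8.14%) and TA67 to TA99 (8.59%), with no test because the same ratios delimited all these ranges. Runs of at least 3 high-ratio wells numbered 1.79 per 1000 features in the low-ratio plates, 8.82 in TB00 to TB25 and 7.90 in TA67 to TA99. Lone high-ratio features numbered 7.52 per 1000 features, against 14.03 in TB00 to TB25 and 27.2 in TA67 to TA99. The longest run was 9 wells in the low-ratio plates, against 18 in TB00 to TB25 and 17 in TA67 to TA99. The share of high-ratio features that stood in such runs was 53.1% in the low-ratio plates, 63.1% in TB00 to TB25 and 57.4% in TA67 to TA99. The share that stood alone was 42.9% in the low-ratio plates, 17.2% in TB00 to TB25 and 31.6% in TA67 to TA99. Both shares depend on how dense the high-ratio features of a range are, and shares under random placement were not computed. The features that were not high-ratio features were also lower, with a median of -0.18 in the low-ratio plates, -0.09 in TB00 to TB25 and -0.10 in TA67 to TA99. The SD of the replicate difference was almost equal, at 0.33, 0.32 and 0.33 units. Since the ratios delimited the ranges, their differences in ratio are a description only. The spread between replicates differed little among them.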

How the data were processed

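The deposited table holds the authors' log-scale ratios for 4 arrays, a value for each feature on each array. The labels' protocols state direct dye labelling after amplification. For the platform, background correction, normalization, log base, direction and centring, the entry is "not given in the sources used here". Dye-exchanged columns were identical and were counted as 1 replicate. Each replicate was centred on its median over 21727 features. Calls came from limma 3.58.1 (R 4.3.3): lmFit and eBayes on the 2 replicates, two-sided against 0, Benjamini-Hochberg adjustment over all features. Its prior degrees of freedom were infinite. The fit was tried on simulated data with independent noise of the same SD for every feature, as the fit assumes. Such data lack the likeness of neighbouring wells, so this checked the working of the fit and not the calls given here. Runs were stretches of at least 3 consecutive measured wells, ended by an empty or unlisted well or a change of series. Python 3.11.15, NumPy 2.4.6, pandas 2.3.3 and SciPy 1.17.1 were used.

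Named features were the 10 highest, the 6 lowest, the 3 with the largest replicate difference in each direction, the runs of at least 5 wells, the plates with the most and with no high-ratio features, and the end plates. Other named features were chosen after their values were seen. The plates, rules and alternatives were chosen with earlier results of these data known. Without intensities the signal over background is unknown, and precision is limited by the number of arrays.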

Additional observations from a re-analysis of the deposited data

How the results depend on the processing

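The 577 calls above the median became 74 without centring, 1020 with centring on the mode and 271 with limma's treat against 0.5 units. The 1407 calls below became 8102, 497 and 46 under the same settings, and 696 at an adjusted p under 0.01. The 147 high-ratio features became 39 without centring, 239 with centring on the mode, 400 at a limit of 0.5 units and 73 at 1.5 units, and 186 to 271 with either replicate left out. The 15 runs became 7 without centring, 23 at 0.5 units and 8 with at least 5 wells, and 15 to 16 with either replicate left out. The median of -0.17 became -1.44 without centring and 0.0086 with centring on the mode, and lay between -0.20 and -0.14 with either replicate left out. Pearson's r between replicates was 0.636 without high-ratio features, and Spearman's rho was 0.565. Pearson's r with the next well was 0.334 among pairs without high-ratio features, 0.329 among pairs without features in runs (added after the data were seen), 0.069 for the well below in the same plate column, and 0.441 to 0.541 with either replicate left out. Leaving out plates TB26 and TC13, an alternative added after the data were seen, gave 139 high-ratio features and 14 runs. The trended robust fit gave 609 calls above and 1895 below. Quantile normalization kept each count within 1.5 times its main value and left 15 runs. No paired analysis was possible because there is a single group. With n = 2, leaving out a replicate leaves no test. Signal over background is unknown, so its limit on low ratios was not tested.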
